A study of Brachypodium distachyon with 6 samples.

Results

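A list of cellulose synthase catalytic subunit (CESA) genes of *Brachypodium distachyon* was examined in roots of intact and pruned plants. The 8 members were chosen by gene identifier, 5 assigned to the primary wall and 3 to the secondary wall, out of 19538 genes in the expression table. All 8 were listed in the table, which was not searched for further CESA genes. The secondary wall genes are CESA4 (Bradi3g28350), CESA7 (Bradi4g30540) and CESA8 (Bradi2g49912), and the primary wall genes are Bradi2g34240, Bradi1g04597, Bradi1g54250, Bradi1g53207 and Bradi1g29060. The table holds identifiers without gene names, so the wall types rest on the list of identifiers, and the root label was not checked against marker genes.

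Both groups were seedlings of the inbred line Bd21, sown 20 to a sterile box on agar medium with sucrose and 2 weeks old at treatment. In each box one part of the seedlings stayed intact, and the others were pruned with scissors to a stub of 1/3 of the plant. Root RNA was collected 2 days later and sequenced as 3 libraries of intact and 3 libraries of pruned plants. The number of plants behind each library is not given in the sources used here. RNA came from whole roots, so fewer cells of a type and less RNA per cell cannot be told apart.

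Cellulose is made at the plasma membrane by complexes of CESA proteins, which take glucose from UDP-glucose and extend the glucan chains that form a microfibril. Each complex needs several different CESA proteins. One set works in the thin primary wall of growing cells. In Arabidopsis the other set, CESA4, CESA7 and CESA8, lays down the thick secondary wall of xylem and fibre cells, and loss of any member of that set collapses the xylem vessels.

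Values are RPM, the reads of a gene per 1000000 reads counted in its library. The libraries held 17278649 to 28420464 reads, and the CESA genes were read 245 times (CESA4, pruned replicate 1) to 8383 times (Bradi2g34240, intact replicate 1) in a library. Counting error alone (1 SD) is therefore at most 6.39% of a CESA value in any library. R1 reads alone were used for pruned replicates 2 and 3, and read pairs for the other 4 libraries. RPM are not corrected for gene length, so levels of different CESA genes were not ranked. Each log2 fold change sets pruned against intact roots, on log2(RPM + 0.5), and comes with its standard error (SE) and the Benjamini-Hochberg adjusted p of limma over all 19538 genes.

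Transcripts of all 3 secondary wall CESA genes were lower in pruned roots, by 43.9% to 49.4% of their mean in intact roots. Of the 5 primary wall genes, 3 fell less, by 19.7% to 25.0%, Bradi1g04597 rose by 27.2%, and Bradi1g29060 did not pass the test. At an adjusted p of at most 0.05, 7 of the 8 genes passed the test, where 50.3% of all genes tested passed. By direction, 6 of the 8 were lower beside 20.2% of all genes, and 1 of the 8 was higher beside 30.1%. With quantile normalization of the libraries, which did not change these counts of CESA genes, 25.6% of all genes were lower and 25.7% higher. Among genes that were also changed at least 1.5-fold, the secondary wall genes made up 3 of the 8 on the lower side, against 4.78% of all genes. At 2-fold, 0 of the 8 remained in this fit, against 1.72% of all genes lower. CESA4 did pass 2-fold with quantile normalization, DESeq2, either edgeR test or intact replicate 2 left out (log2 fold change -1.03 to -1.01). Every pruned library lay below every intact library for these 6 genes, as it did for 22.7% of all genes, and above for Bradi1g04597, as for 33.4% of all genes. The median log2 fold change was -0.91 over the secondary wall genes, -0.31 over the primary wall genes and 0.042 over all genes.

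**Figure D1:**
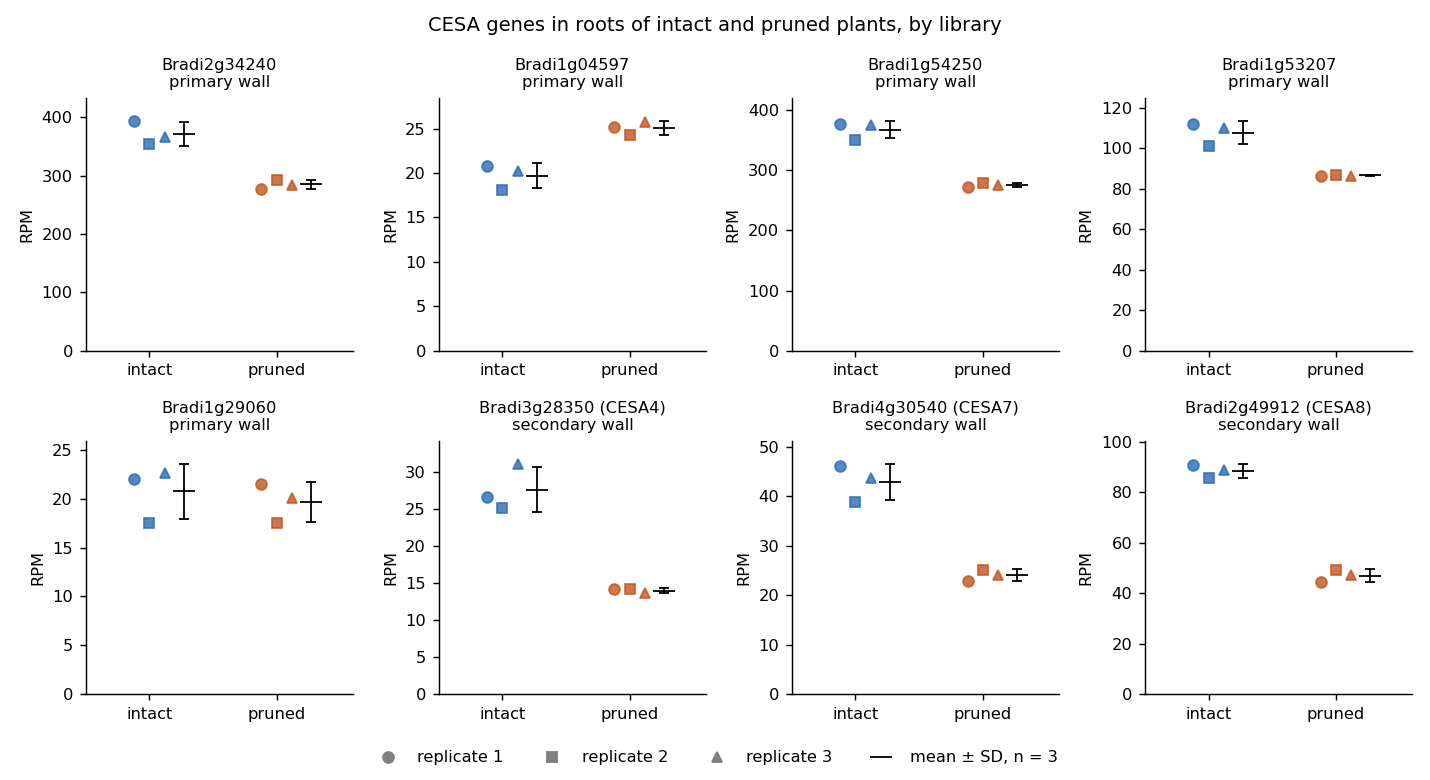
RPM of each CESA gene (vertical axis, starting at 0) in the 3 intact and 3 pruned libraries, with a symbol for each replicate and the mean ± SD beside them. The pruned libraries lie below the intact ones for 6 genes, above them for Bradi1g04597 and among them for Bradi1g29060.

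CESA8 (Bradi2g49912), a subunit of the secondary wall complex, had 91.0, 85.6 and 88.8 RPM in intact replicates 1, 2 and 3 and 44.3, 49.3 and 47.2 RPM in pruned replicates 1, 2 and 3. Its highest pruned library was thus well under its lowest intact library. The mean was 88.5 ± 2.73 RPM (SD, n = 3) in intact and 46.9 ± 2.54 RPM (SD, n = 3) in pruned roots, a log2 fold change of -0.91 (SE 0.053, adjusted p = 1.2e-12). Only 2.05% of all genes tested had a log2 fold change as low or lower.

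CESA7 (Bradi4g30540), another subunit of that complex, had 46.1, 38.9 and 43.7 RPM in the intact libraries and 22.9, 25.2 and 24.2 RPM in the pruned libraries. The groups did not overlap here either, although intact replicate 2 was lower than the other intact libraries. From 42.9 ± 3.65 RPM (SD, n = 3) CESA7 fell to 24.1 ± 1.15 RPM (SD, n = 3), which is a log2 fold change of -0.82 (SE 0.068, adjusted p = 5.3e-10).

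CESA4 (Bradi3g28350), the third subunit, had 26.6, 25.2 and 31.1 RPM in the intact libraries and 14.2, 14.2 and 13.6 RPM in the pruned libraries. The pruned libraries lay close together, whereas intact replicate 3 stood above the other intact libraries. CESA4 fell from 27.7 ± 3.08 RPM (SD, n = 3) to 14.0 ± 0.338 RPM (SD, n = 3). Its log2 fold change of -0.95 (SE 0.079, adjusted p = 5.4e-10) was the lowest of the 8 genes, with a 95% confidence interval of -1.12 to -0.79 that overlaps those of CESA7 and CESA8.

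Within the secondary wall set the proportions of the 3 transcripts moved little. CESA8 made up 55.7% ± 1.45 (SD, n = 3) of the summed RPM of the set in intact roots and 55.2% ± 0.649 (SD, n = 3) in pruned roots. CESA7 made up 26.9% ± 1.10 and 28.3% ± 0.175, and CESA4 made up 17.4% ± 1.46 and 16.5% ± 0.816 (SD, n = 3 each). The intact and pruned libraries overlapped in the CESA8 and CESA4 shares. For CESA7 they overlapped as well, from 26.0% to 28.1% in intact and from 28.1% to 28.5% in pruned libraries. Gene length is not part of these shares, so they describe reads and not the number of transcripts.

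Among the primary wall genes, Bradi2g34240 and Bradi1g54250 carried most of the reads. Bradi1g54250 had 377, 351 and 375 RPM in the intact libraries and 272, 279 and 276 RPM in the pruned libraries. The intact libraries were all higher, and the pruned libraries were within a few percent of each other. It fell from 367 ± 14.5 RPM (SD, n = 3) to 276 ± 3.61 RPM (SD, n = 3), a log2 fold change of -0.41 (SE 0.043, adjusted p = 2.5e-08).

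Bradi2g34240 had 394, 354 and 366 RPM in the intact libraries and 278, 292 and 284 RPM in the pruned libraries, again with no overlap. The log2 fold change was -0.38 (SE 0.046, adjusted p = 2.5e-07), from 371 ± 20.6 RPM to 285 ± 7.27 RPM (SD, n = 3 each). Bradi1g53207 had 112, 101 and 110 RPM in the intact libraries and 86.3, 87.0 and 86.5 RPM in the pruned libraries. Its log2 fold change was -0.31 (SE 0.049, adjusted p = 1.1e-05), from 108 ± 5.73 RPM to 86.6 ± 0.375 RPM (SD, n = 3 each). These 3 primary wall genes fell together and by similar amounts, with 95% confidence intervals of their log2 fold changes between -0.50 and -0.21.

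Bradi1g04597 went the other way. It had 20.8, 18.1 and 20.2 RPM in the intact libraries and 25.2, 24.2 and 25.8 RPM in the pruned libraries, so that all pruned libraries were higher. The rise from 19.7 ± 1.40 RPM (SD, n = 3) to 25.1 ± 0.785 RPM (SD, n = 3) gave a log2 fold change of 0.34 (SE 0.071, adjusted p = 3.3e-04). A log2 fold change this high or higher was found for 19.1% of all genes tested, so rises of this size were common in these roots.

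Bradi1g29060 had 22.1, 17.6 and 22.7 RPM in the intact libraries and 21.5, 17.5 and 20.1 RPM in the pruned libraries. The groups overlapped, and both their lowest values came from replicate 2. With 20.8 ± 2.80 RPM in intact and 19.7 ± 2.05 RPM in pruned roots (SD, n = 3 each), the log2 fold change was -0.072 (SE 0.091, adjusted p = 0.539). Its 95% confidence interval of -0.26 to 0.12 does not reach the falls of the secondary wall genes.

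**Figure D2:**
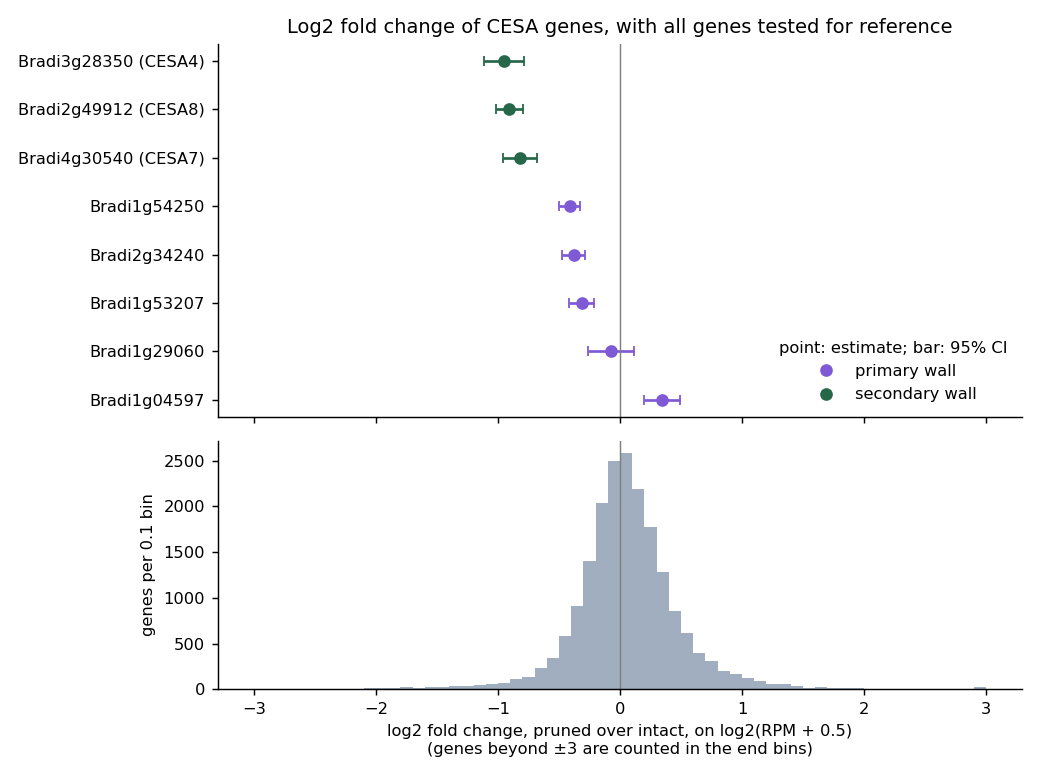
Upper panel: log2 fold change of pruned over intact roots for each CESA gene (horizontal axis) with its 95% confidence interval as a bar. Lower panel: number of all genes tested per bin of log2 fold change. The secondary wall genes lie between -0.95 and -0.82, the primary wall genes between -0.41 and 0.34, and the median of all genes is 0.042.

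Pooled by wall type, the 3 secondary wall genes summed to 164, 150 and 164 RPM in the intact libraries and to 81.3, 88.7 and 85.0 RPM in the pruned libraries. Every pruned sum was thus far below every intact sum. The mean fell by 46.5%, from 159 ± 8.05 RPM to 85.0 ± 3.69 RPM (SD, n = 3 each). The 5 primary wall genes summed to 925, 841 and 894 RPM in the intact libraries and to 683, 700.3 and 692 RPM in the pruned libraries. Their mean fell by 22.0%, from 887 ± 42.4 RPM to 692 ± 8.72 RPM (SD, n = 3 each). No test was made on these sums, since the members were chosen with earlier results known.

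The 8 listed CESA genes together summed to 1046 ± 50.0 RPM in intact and 777 ± 12.4 RPM in pruned roots (SD, n = 3 each). The net difference was 269 RPM lower, of which the primary wall genes made up 72.5% and the secondary wall genes 27.5%. The primary wall set, with the smaller percentage fall, thus held the larger part of the difference in RPM. Secondary wall genes held 15.0%, 15.1% and 15.5% of the RPM of these 8 genes in the intact libraries. In the pruned libraries they held 10.6%, 11.2% and 10.9%. The ratio of secondary to primary wall RPM went from 0.179 ± 0.00327 to 0.123 ± 0.00380 (SD, n = 3 each), and the groups did not overlap.

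**Figure D3:**
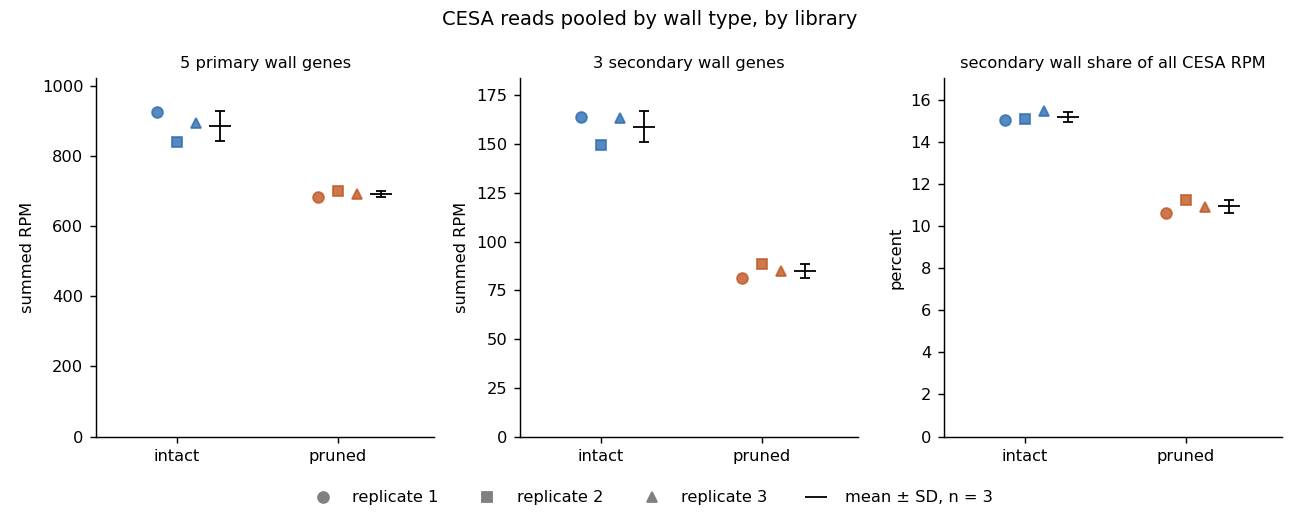
Summed RPM of the 5 primary wall genes and of the 3 secondary wall genes for each library, with the mean ± SD. The last panel gives, in the same way, the percent of the RPM of these 8 genes held by the secondary wall genes. Vertical axes start at 0. The secondary wall share is 15.0% to 15.5% in intact and 10.6% to 11.2% in pruned libraries.

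Within the primary wall set the proportions shifted for Bradi1g04597. It held 2.22% ± 0.0573 of the summed RPM of the set in intact roots and 3.63% ± 0.144 in pruned roots (SD, n = 3 each). Bradi1g54250 went from 41.4% ± 0.645 to 39.8% ± 0.0284 (SD, n = 3 each), with no overlap between the groups. Bradi2g34240 held 41.8% ± 0.837 and 41.2% ± 0.537 (SD, n = 3 each), with overlapping groups. The share of Bradi1g53207 was 12.2% ± 0.162 in intact and 12.5% ± 0.111 in pruned roots (SD, n = 3 each), with no overlap but a small difference. Bradi1g29060 held 2.34% ± 0.230 and 2.85% ± 0.330 (SD, n = 3 each), with overlapping groups.

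The log2 ratio of RPM + 0.5 was also compared for each of the 28 pairs of CESA genes within the libraries. Of the 15 pairs of a primary and a secondary wall gene, 15 had ratios that did not overlap between intact and pruned libraries. The ratio in these pairs moved by 0.41 to 1.29 on the log2 scale, toward the primary wall gene each time. Among the 10 pairs of primary wall genes, 6 did not overlap, and 4 of these involved Bradi1g04597. The 3 pairs of secondary wall genes moved by 0.044 to 0.13, and 1 of them, CESA7 with CESA8, did not overlap. With 3 libraries a group, the lowest p of an exact two-sided permutation test is 0.1. This p was reached by all 22 pairs without overlap (adjusted p = 0.127 over the 28 pairs). No pair therefore passes a threshold of 0.05 by this test. The 28 pairs reuse the same CESA genes, so they are not separate observations. The share without overlap among pairs drawn from all genes was not computed. Among single genes a lack of overlap was common, with 22.7% of all genes lower and 33.4% higher in the pruned libraries.

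Some library effects stand beside these values. Intact replicate 2 was the lowest intact library for 8 of the 8 CESA genes, and for 43.6% of all genes tested. For the CESA genes it lay 0.070 to 0.34 below the mean of the other intact libraries on the log2 scale, against a median of 0.029 below over all genes. The part of this library in the results was measured by leaving it out, after which the log2 fold changes of CESA8, CESA7 and CESA4 were -0.93, -0.89 and -1.01. The paired-end pruned library, replicate 1, gave log2 differences from the mean of the intact libraries of -0.99, -0.89 and -0.93 for the same genes. For Bradi1g54250, Bradi2g34240 and Bradi1g53207 these were -0.43, -0.42 and -0.32, and for Bradi1g04597 the difference was 0.35. Pruned replicate 1 thus showed the direction of each of the 7 changes without the libraries of R1 reads. As 1 library it gives no spread of its own. Bradi1g29060 differed by 0.059 in it, against -0.072 in the reported fit.

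**Figure D4:**
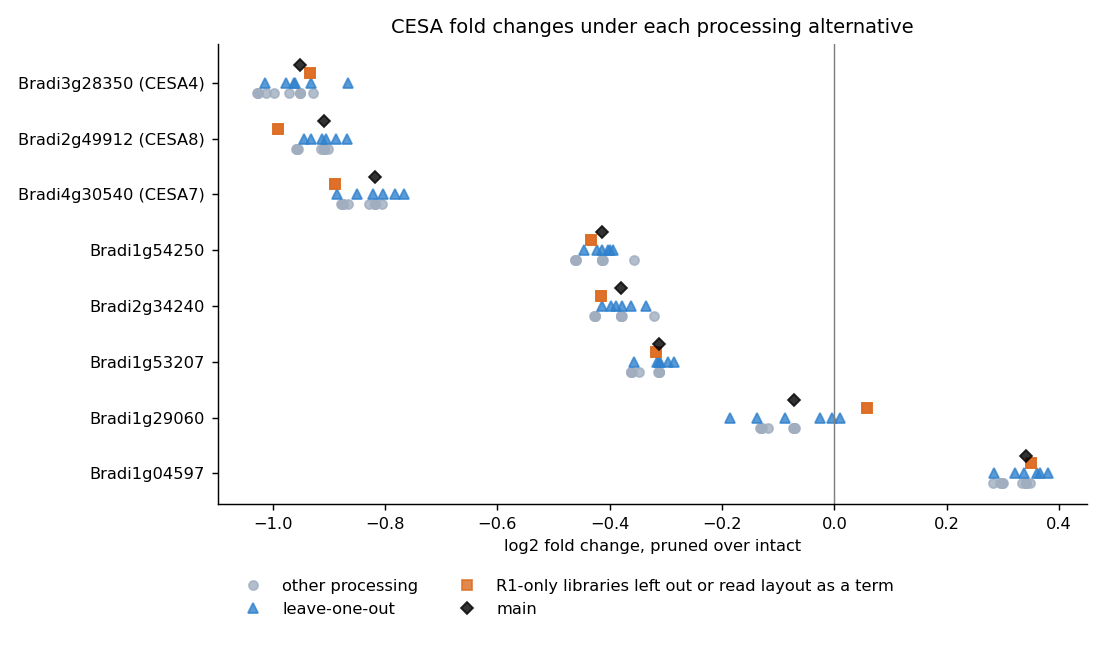
Log2 fold change of pruned over intact roots (horizontal axis) of each CESA gene under every processing alternative, with the reported value as a black diamond. The secondary wall genes stay between -1.03 and -0.77, Bradi1g04597 stays above 0, and Bradi1g29060 is the gene that crosses 0.

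Other wall genes could be followed only through lists of identifiers that the study drew from its differentially expressed genes in these same libraries, so their counts are no independent evidence. Under plant-type secondary cell wall biogenesis, 6 genes are listed, which include regulators of secondary wall formation but none of the CESA genes. Of these, 3 fell and 3 rose, where 20.2% of all genes tested were lower and 30.1% higher. The median log2 fold change of the list was 0.038. That median lies in the gap between Bradi5g24040 (-0.55) and Bradi1g10470 (0.62) and describes no gene of the list. The lowest value was that of Bradi4g21220, from 23.2 ± 0.758 to 9.34 ± 1.08 RPM, and the highest that of Bradi3g36370, from 1.43 ± 0.210 to 2.81 ± 0.272 RPM (SD, n = 3 each). The second lowest and second highest were Bradi3g42430 (log2 fold change -0.76, adjusted p = 4.1e-04) and Bradi4g22730 (0.70, adjusted p = 2.1e-06). Bradi3g36370 and Bradi3g42430 were read only 23 to 81 and 24 to 69 times in a library. Their counting error (1 SD) thus reached 20.9% and 20.4% of a value. The list thus held changes of both signs. Its genes were picked for a change in either direction, so it gives no measure to set CESA4, CESA7 and CESA8 against.

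Trichome birefringence-like proteins acetylate wall polysaccharides in Arabidopsis, and some of their mutants are poor in secondary wall cellulose. The study places 7 identifiers in this family, a list taken up after the data had been seen. Of these, 5 fell, 1 rose and 1 did not pass the test, where 20.2% of all genes tested were lower and 30.1% higher. The study had picked the identifiers for a change in these libraries, so passing was largely fixed in advance. The median log2 fold change was -0.57. The lowest was Bradi2g45320, from 6.36 ± 1.17 to 1.99 ± 0.456 RPM, and the gene that rose was Bradi5g15020, from 25.5 ± 1.54 to 40.4 ± 0.835 RPM (SD, n = 3 each). Bradi3g56217 had the second lowest log2 fold change, -0.89 (adjusted p = 1.5e-05). Bradi2g45320 and Bradi3g56217 were read only 28 to 140 and 62 to 147 times in a library. Elsewhere in the study's lists Bradi2g45350 and Bradi1g65530 carry other names, so their place in the family is uncertain. Sucrose synthases split sucrose into fructose and UDP-glucose, the substrate of CESA proteins. Of the 5 identifiers listed for them 4 fell and 1 rose. They were picked in the same way, and substrate supply was not measured.

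The genes most like the secondary wall set were found by Pearson's r over the 6 libraries with the mean log2(RPM + 0.5) of CESA4, CESA7 and CESA8. The libraries form 2 groups, so r mostly follows the difference between intact and pruned roots, and 1674 of 19530 genes (8.57%) had an r of at least 0.95. At the top stood Bradi1g44630, Bradi1g18650, Bradi3g31690, Bradi4g43930 and Bradi1g60320, each with an r of 0.999. Bradi1g60320 is one of the identifiers listed as sucrose synthase. Bradi1g44630, whose product is not named in the sources used here, had 54.9 ± 3.72 RPM in intact and 28.0 ± 0.791 RPM in pruned roots (SD, n = 3 each), a log2 fold change of -0.96 that lies near that of CESA4.

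For the primary wall set, whose mean includes genes of opposite direction, 296 genes (1.52%) had an r of at least 0.95. The 5 genes of highest r were Bradi1g29400, Bradi2g54380, Bradi3g48647, Bradi4g28040 and Bradi5g00700, with r from 0.995 to 0.999. Their log2 fold changes were small, from -0.30 to -0.12, and intact replicate 2 was the lowest intact library for each of them. Bradi1g29400 did not pass the test (adjusted p = 0.106).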

How the data were processed

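Root RNA of 3 intact and 3 pruned samples was analysed. Per the study's methods the authors trimmed low-quality ends and adapters, aligned reads to the phytozome genome by TopHat and counted the unique alignments of each gene (HTSeq per the submitters' processing notes). Strand setting and genome build are not given in the sources used here. The authors deposited RPM, with a sum of 1000000 in every library, and no listed gene is under 1 RPM in more than 3 libraries. Dividing by the step of each library gave whole reads, within 0.01 of a read, for 100% of values.

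Samples were grouped by treatment label. The fit was limma 3.58.1 in R 4.3.3 (lmFit, eBayes with trend) on log2(RPM + 0.5), two-sided, on genes with at least 0.5 RPM in at least 3 libraries, which removed no gene. Genes passed the test at an adjusted p of at most 0.05. With 3 libraries a group, which the study calls biological replicates, the exact permutation p of 1 gene is 0.1 or higher. Alternatives were pseudocounts of 0.1 and 1, no filter and one at 1 RPM, median-ratio and quantile scaling, limma without trend, count models on these reads (DESeq2 1.42.0, and both the quasi-likelihood and the exact test of edgeR 4.0.16), read layout or replicate number as a term, each library left out, and fold thresholds. Leaving out both libraries of R1 reads was added after seeing the data. The tests were tried on simulated data with the same scatter setting for all genes and no read layout effect, so that trial does not cover such effects. Other steps used Python 3.11.15 with pandas 2.3.3 and scipy 1.17.1.

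The members and gene lists were chosen with earlier results of these data known. The genes named are the 8 members, for each list up to 2 of the largest rises and falls among genes past the test of mean 1 RPM or more, and 5 genes of most similar pattern for each wall type. Bradi2g45350 and Bradi1g65530 fall outside this rule and are named for their conflicting annotation. Of the table's identifiers, 0 matched the gene reference at hand, so lists planned by gene description, cell type markers, coding lengths, promoters and proteins were not used here.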

Additional observations from a re-analysis of the deposited data

How the results depend on the processing

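The 7 CESA genes past the test kept their direction and an adjusted p of at most 0.05 under all 19 alternatives to the fit, and Bradi1g29060 passed under none. The highest adjusted p of these genes was 0.016 (Bradi1g04597, paired-end libraries only). That setting, and read layout as a term, set pruned replicate 1 alone against the intact libraries and assume that it varies as the replicated libraries do. Without these settings the highest was 0.0061 (Bradi1g04597, limma without the trend). DESeq2 and both edgeR tests also called 7 genes. The settings with no filter and with a filter at 1 RPM removed no gene, so their agreement with the reported fit was fixed in advance. The value of Bradi1g29060 turned to 0.059 with read layout as a term and with paired-end libraries only, and ran from -0.19 to 0.0091 when each library was left out, the highest without pruned replicate 2. Fold thresholds were applied to the reported fit alone. With at least 1.5-fold change, 3 genes passed, 3 lower and 0 higher, and with at least 2-fold change 0 passed, 0 lower and 0 higher. The count at 2-fold depends on the fit. CESA4, at -0.95 in the reported fit, was at -1.01 with quantile normalization and without intact replicate 2. It was at -1.03 with DESeq2 and both edgeR tests, so it passed 2-fold in each of these settings.

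The log2 ratio of the primary wall sum was -0.36, and -0.17 as the mean of log2 values, which weights each gene equally. The log2 change of the ratio of secondary to primary wall RPM was -0.55. It was -0.73 as the mean of log2 values, -0.64 with quantile normalization and -0.59 with paired-end libraries only, and the cause of these last differences was not tested. Whether libraries of the same number came from the same boxes is not given in the sources used here, and the values did not settle it. Deviations of same-numbered libraries correlated at -0.026, 0.20 and 0.084 over genes, and 3 of 6 libraries correlated best with their own number. With the replicate block 10141 genes of the table passed against 9830 without it, and 7 CESA genes in both fits. Median-ratio scaling moved the median of all genes from 0.042 to -0.0026, with 24.6% of all genes lower and 26.1% higher.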
